A study of Mus musculus with 9 samples.

Results

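The CD300 genes encode a family of leukocyte surface receptors with a single immunoglobulin-like domain. The 6 members described here, Cd300a, Cd300lf, Cd300e, Cd300lb, Cd300ld and Cd300lg, were taken by gene symbol from 23234 symbols measured in each of 9 libraries. The libraries hold RNA sequencing of CD11b+ blood monocytes, sorted from C57BL/6 mice at an age of 8 months. Every genotype carried Yaa, the Y-linked accelerator of autoimmunity, so no library came from mice without it. Fcgr2, listed as Fcgr2b in the files, encodes the inhibitory IgG receptor CD32 and was the targeted gene. The Gr-1+CD11b+ subset had 4 libraries, of which 2 were Fcgr2-/-.Yaa (null), 1 was CEBPaCre;Fcgr2 fl/fl.Yaa (CEBPaCre) and 1 was CD19Cre;Fcgr2 fl/fl.Yaa (CD19Cre). The Gr-1-CD11b+ subset had 5 libraries, 1 each of null, CEBPaCre, CD11cCre;Fcgr2 fl/fl.Yaa (CD11cCre), CD19Cre and Fcgr2 fl/fl.Yaa without a Cre (floxed). CEBPaCre is driven by a gene of myeloid progenitors, CD11cCre by a gene of dendritic cells and of part of the monocytes, and CD19Cre by a gene of B cells. Separate animals are not named in the labels, and each p-value therefore measures only a spread between libraries that may be technical.

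CD300 receptors come in activating and inhibitory forms that bind lipids exposed on dying cells and other ligands, and they are found mostly on myeloid cells. The inhibitory receptors, Cd300a and Cd300lf, carry immunoreceptor tyrosine-based motifs in their cytoplasmic tails that recruit phosphatases such as SHP-1. The activating receptors, Cd300e, Cd300lb and Cd300ld, have short tails and signal through adaptors such as DAP12 (Tyrobp) and the Fc receptor gamma chain (Fcer1g). Cd300lg, or nepmucin, is best known as an adhesion molecule of vascular endothelium and was kept apart from both classes. In mice, most of these genes lie in a single cluster on chromosome 11. Gr-1+ monocytes are the classical, inflammatory type and Gr-1- monocytes the nonclassical, patrolling type.

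The promoters of Cd300e and Cd300ld are shown because both genes were lower in Gr-1+ monocytes, and that of Cd300lb, from the same cluster, because its subset difference did not pass the test. Each is the RefSeq window of 300 bases around the gene start in GRCm38.p6, read 5′ to 3′ on the gene's strand, with the letters AGGAAG, the core bound by ETS factors such as PU.1, in capitals on either strand (CTTCCT on the other). The Cd300e window is chr11:115061990-115062289, minus strand, that of Cd300ld is chr11:114989837-114990136, minus strand, and that of Cd300lb is chr11:114934322-114934621, minus strand.
Cd300e: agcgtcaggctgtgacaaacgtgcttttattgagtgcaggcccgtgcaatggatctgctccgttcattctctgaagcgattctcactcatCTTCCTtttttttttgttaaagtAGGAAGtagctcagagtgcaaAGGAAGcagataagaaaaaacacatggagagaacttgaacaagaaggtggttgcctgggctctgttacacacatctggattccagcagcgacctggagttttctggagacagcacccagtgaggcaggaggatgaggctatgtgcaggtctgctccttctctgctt
Cd300ld: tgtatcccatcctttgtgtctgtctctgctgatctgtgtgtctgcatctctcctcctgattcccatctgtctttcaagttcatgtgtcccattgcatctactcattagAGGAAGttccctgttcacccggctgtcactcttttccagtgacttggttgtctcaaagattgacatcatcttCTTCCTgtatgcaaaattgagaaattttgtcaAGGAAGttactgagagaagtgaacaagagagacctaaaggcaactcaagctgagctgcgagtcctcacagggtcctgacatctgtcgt
Cd300lb: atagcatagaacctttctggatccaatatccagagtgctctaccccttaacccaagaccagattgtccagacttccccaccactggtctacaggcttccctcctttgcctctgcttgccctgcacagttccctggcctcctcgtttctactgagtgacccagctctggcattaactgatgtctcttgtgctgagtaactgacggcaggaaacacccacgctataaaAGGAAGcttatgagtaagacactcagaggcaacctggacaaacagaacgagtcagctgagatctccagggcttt
The AGGAAG core occurred 3 times in the Cd300e window, 3 times in the Cd300ld window and 1 time in the Cd300lb window, and the windows of Cd300a and Cd300lf held 2 each. Of all 32851 RefSeq windows of this length, 35.35% held it at least 1 time. The 8 letters AAAGGTCA, the element bound by the NR4A factors, were found on either strand in 1.507% of all windows and in none of these 5. TTGCNNAA, a form of the C/EBP element, stood in 10.8% of all windows and 1 time in that of Cd300a. CCACCC, the CACCC box bound by KLF factors, stood in 31.48% of all windows and 1 time in that of Cd300a. In global alignments, the 5 windows were identical to each other at 47.4% to 52.5% of columns, and the Cd300e and Cd300ld windows at 51.2%. A match of letters is a description of the window and shows no binding. Cd300lg was not matched in the promoter table.

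Summed FPKM (fragments scaled by the length of the transcript and by the mapped fragments of the library) ran from 411256 to 560116 per library, between 9783 and 10258 genes per library reached 1 FPKM, and the depth in reads was unknown. Genes at 0 varied more, from 5123 in null Gr-1- to 10140 in CD19Cre Gr-1+. Null Gr-1-, floxed Gr-1- and null Gr-1+ replicate 2 had the fewest genes at 0 (5123 to 5693) and the lowest summed FPKM (411256 to 440371). The part of this split in the genotype differences was not tested. Markers of classical monocytes summed to 1897 to 3089 FPKM in Gr-1+ libraries and 51.7 to 129 FPKM in Gr-1- libraries, and all 5 were higher in Gr-1+. Ly6c2, among these 5, encodes what the Gr-1 gate selects on, so its direction was set by the sort. Markers of nonclassical monocytes summed to 506 to 728 FPKM in Gr-1+, against 1690 to 3034 FPKM in Gr-1- libraries, and 6 of 7 were higher in Gr-1-. The targeted gene Fcgr2b did not follow the labels. It held 106 to 201 FPKM in the 3 Gr-1+ libraries labelled null or CEBPaCre and 195 FPKM in the CD19Cre Gr-1+ library. In Gr-1-, Fcgr2b held 145 FPKM in the null library, 83.0 in CEBPaCre, 92.9 in CD11cCre, 105 in CD19Cre and 74.9 in floxed. Genotypes are therefore named only as the libraries are labelled. Both CD19Cre libraries had a lower share of FPKM in genes of ribosomal proteins, 1.89% and 2.16%, than the other 7, at 3.48% to 7.39%.

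The first comparison asked which CD300 genes differed between Gr-1+ and Gr-1- monocytes. Cd300e and Cd300ld, both activating, were lower in Gr-1+ monocytes, by 22.8-fold and 4.87-fold, and Cd300lg was 4.76-fold higher in Gr-1+. The inhibitory Cd300a and Cd300lf and the activating Cd300lb did not pass the test. All 6 members passed the filter on low values, which asked for 1 FPKM or more as the average of the 9 libraries. The test was limma on log2(FPKM + 1), with a threshold of 0.05 for the p adjusted by Benjamini-Hochberg over all genes. It called 14.8% of 10436 genes, 8.84% higher and 5.95% lower in Gr-1+, beside 1 member higher and 2 members lower. The median log2 difference, Gr-1+ minus Gr-1-, was -0.33 over the 6 members and 0.09 over all genes tested. RNA of a whole sorted population cannot tell fewer cells expressing a gene from less RNA of it per cell.

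**Figure D1:**
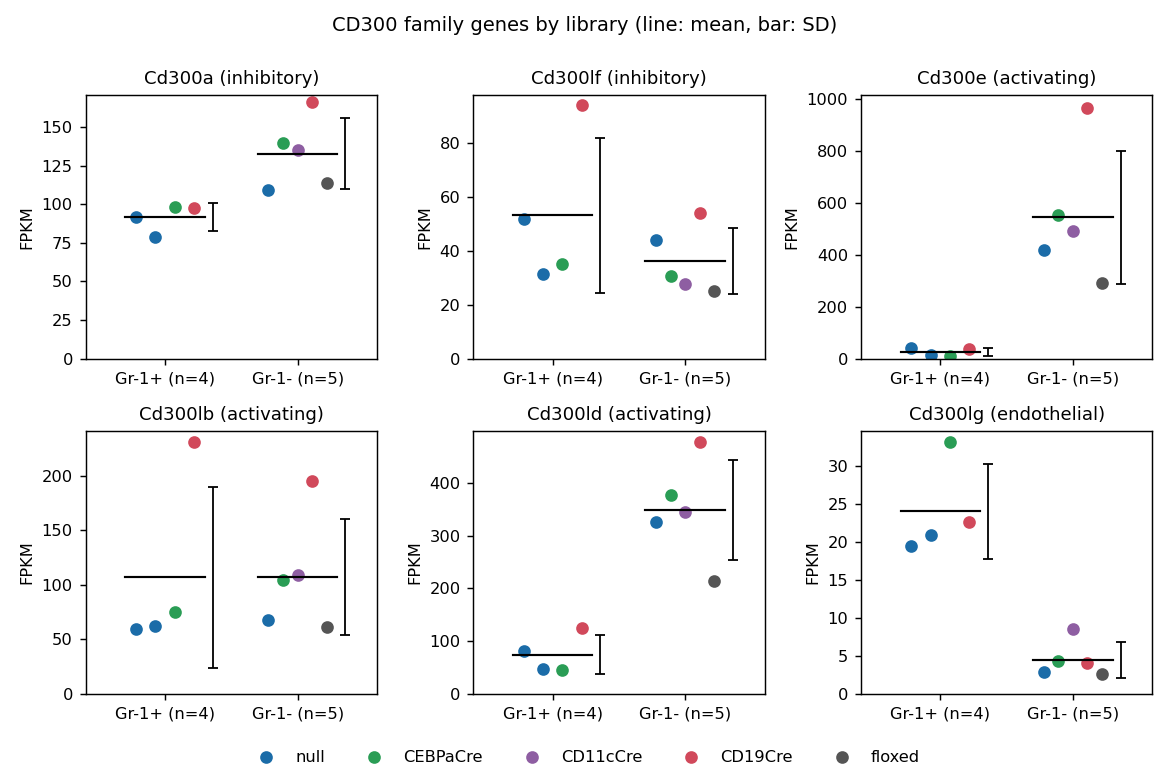
Level of each CD300 gene in FPKM (y axis, from 0) in the 4 Gr-1+ and 5 Gr-1- libraries, as 1 point per library coloured by genotype label, with the mean of each subset as a line and its SD as a bar. Cd300e and Cd300ld lay lower and Cd300lg higher in every Gr-1+ library than in any Gr-1- library, while the points of Cd300lf and Cd300lb overlapped.

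Among the inhibitory receptors, Cd300a binds phosphatidylserine and phosphatidylethanolamine on dying cells. It held 91.9 and 79.0 FPKM in the null, 98.6 in the CEBPaCre and 97.7 in the CD19Cre library of Gr-1+. In Gr-1-, Cd300a held 109 FPKM in the null, 139.7 in the CEBPaCre, 135 in the CD11cCre, 166 in the CD19Cre and 114 in the floxed library. Every Gr-1+ library was thus below every Gr-1- library, and the spread was narrow, at 91.8 ± 9.02 FPKM in Gr-1+ (SD, n = 4) and 133 ± 22.9 FPKM in Gr-1- (SD, n = 5). The log2 difference of Cd300a was -0.52 ± 0.19 (SE), and it did not pass (limma adjusted p = 0.105). The exact two-sided permutation p for this gene alone was 0.0159, over 126 assignments of the libraries with a smallest possible p of 0.00794. Cd300a passed as lower in Gr-1+ when libraries were first brought to a common scale, at -0.64 with quantile normalization (limma adjusted p = 0.00424) and at -0.62 with median-ratio scaling (limma adjusted p = 0.0107). It also passed with library weights and with genotype as a block (limma adjusted p = 0.0241 and 0.0408).

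Cd300lf, the other inhibitory receptor, takes part in the uptake of dying cells in mice and is the entry receptor of murine norovirus. It held 51.6 and 31.4 FPKM in the null, 35.1 in the CEBPaCre and 94.0 in the CD19Cre library of Gr-1+. Cd300lf held 43.9 FPKM in the null, 30.5 in the CEBPaCre, 27.5 in the CD11cCre, 53.8 in the CD19Cre and 25.05 in the floxed library of Gr-1-. The subsets overlapped, and the CD19Cre library was the highest of each. The means were 53.0 ± 28.7 FPKM in Gr-1+ (SD, n = 4) and 36.2 ± 12.3 FPKM in Gr-1- (SD, n = 5), with a log2 difference of 0.46 ± 0.34 (limma adjusted p = 0.433).

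Among the activating receptors, Cd300e is a receptor of monocytes and myeloid dendritic cells that associates with DAP12 in humans. It held 39.1 and 13.4 FPKM in the null, 10.1 in the CEBPaCre and 35.7 in the CD19Cre library of Gr-1+. In Gr-1-, Cd300e held 418 FPKM in the null, 553 in the CEBPaCre, 489 in the CD11cCre, 966 in the CD19Cre and 291 in the floxed library. The lowest Gr-1- library, floxed, was far above the highest Gr-1+ library, null replicate 1, and both subsets were uneven within themselves. Cd300e averaged 24.6 ± 15.0 FPKM in Gr-1+ (SD, n = 4) and 544 ± 255 FPKM in Gr-1- (SD, n = 5). The log2 difference of -4.51 ± 0.44 passed (limma adjusted p = 5.91e-05), and the exact two-sided permutation p for Cd300e alone was 0.00794, the smallest that 126 assignments can give.

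Cd300ld pairs with the Fc receptor gamma chain in mice. It held 81.9 and 46.9 FPKM in the null, 45.5 in the CEBPaCre and 124 in the CD19Cre library of Gr-1+, and 326 in the null, 377 in the CEBPaCre, 344 in the CD11cCre, 477 in the CD19Cre and 214 in the floxed library of Gr-1-. As with Cd300e, no Gr-1+ library reached the floxed library, the lowest of Gr-1-. Cd300ld averaged 74.7 ± 37.2 FPKM in Gr-1+ (SD, n = 4) and 348 ± 94.7 FPKM in Gr-1- (SD, n = 5), a log2 difference of -2.28 ± 0.33 (limma adjusted p = 0.000909).

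Cd300lb, which signals through DAP12 and binds TIM1, TIM4 and lipopolysaccharide in mice, was the activating member whose subset difference did not pass. It held 59.3 and 62.2 FPKM in the null, 75.2 in the CEBPaCre and 231 in the CD19Cre library of Gr-1+, and 67.7 in the null, 104 in the CEBPaCre, 109 in the CD11cCre, 195 in the CD19Cre and 61.8 in the floxed library of Gr-1-. The CD19Cre libraries were the highest of both subsets, and the other libraries overlapped. Cd300lb averaged 107 ± 83.1 FPKM in Gr-1+ (SD, n = 4) and 108 ± 53.3 FPKM in Gr-1- (SD, n = 5), with a log2 difference of -0.14 ± 0.44 (limma adjusted p = 0.884). Without the CD19Cre library, the Gr-1+ mean of Cd300lb was 65.5 ± 8.46 FPKM (SD, n = 3). The sign of its subset difference turned when null Gr-1+ replicate 1, null Gr-1+ replicate 2 or the CD19Cre Gr-1- library was left out (0.06, 0.04 and 0.11), and none of these fits passed.

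Cd300lg was the member with the lowest level in Gr-1-. It held 19.4 and 20.9 FPKM in the null, 33.1 in the CEBPaCre and 22.6 in the CD19Cre library of Gr-1+, and 2.86 in the null, 4.27 in the CEBPaCre, 8.49 in the CD11cCre, 4.10 in the CD19Cre and 2.65 in the floxed library of Gr-1-. All Gr-1+ libraries were above all Gr-1- libraries. The means were 24.0 ± 6.19 FPKM in Gr-1+ (SD, n = 4) and 4.48 ± 2.36 FPKM in Gr-1- (SD, n = 5), and the log2 difference of 2.25 ± 0.29 passed (limma adjusted p = 0.000354). The 8 endothelial markers examined beside it were low throughout. They summed to 0.272 to 0.996 FPKM in Gr-1+ and 1.54 to 3.01 FPKM in Gr-1- libraries, with Robo4 at 0 in every library and no single value above 0.626 FPKM in Gr-1+ or 2.76 FPKM in Gr-1-. Vwf, the von Willebrand factor gene, was the only one of them high enough to test. It held 0.120 to 0.626 FPKM in Gr-1+ and 1.29 to 2.76 FPKM in Gr-1- libraries. Vwf passed the filter on low values only through its Gr-1- libraries, so no weight is put on its call as lower in Gr-1+.

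The subsets did not overlap for 4 of the 6 members, beside 16.5% of all genes tested. Cd300lg lay above in Gr-1+, beside 10.2% of genes, and Cd300a, Cd300e and Cd300ld lay above in Gr-1-, beside 6.26%. The calls of Cd300e, Cd300ld and Cd300lg held when any 1 library was left out, with log2 differences of -4.80 to -4.18, -2.57 to -2.09 and 2.09 to 2.47. Markers of other cells also differed between the sorts. Neutrophil markers (9 listed, 6 called higher in Gr-1+) summed to 571 to 1937 FPKM in Gr-1+, against 26.2 to 103 FPKM in Gr-1- libraries. Most of the Gr-1+ sum was S100a8, at 379.5 to 1422.6 FPKM, and S100a9, at 148 to 413 FPKM. Ngp held 9.80 to 210 FPKM in Gr-1+ and at most 0.638 FPKM in Gr-1-, and Camp 6.11 to 38.9 FPKM and 0. Ltf held 1.90 to 18.4 FPKM in Gr-1+ and at most 0.156 FPKM in Gr-1-. Elane held 4.87 to 18.0 FPKM in Gr-1+ and at most 0.142 FPKM in Gr-1-, and Mpo 0.0869 to 5.68 FPKM and at most 0.0565 FPKM. The subsets overlapped for Cxcr2, which was highest in floxed Gr-1- at 15.2 FPKM and reached 7.94 FPKM in Gr-1+. They also overlapped for Retnlg, which reached 127 FPKM in CEBPaCre Gr-1+ and 74.98 FPKM in floxed Gr-1-. NK cell markers (5 of 6 called higher in Gr-1-) summed to 0.546 to 1.13 FPKM in Gr-1+, against 18.1 to 279 FPKM in Gr-1- libraries, and B cell markers (3 of 6 called higher in Gr-1-) to 8.64 to 68.4 FPKM in Gr-1+ libraries and 29.6 to 112 FPKM in Gr-1- libraries. Their part in the differences of the CD300 genes was not tested.

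Since FPKM is scaled by transcript length, the levels of the 6 genes can be set side by side. Together they held 375 ± 158 FPKM in Gr-1+ (SD, n = 4) and 1172 ± 429 FPKM in Gr-1- libraries (SD, n = 5). The 2 inhibitory genes made up 40.5% ± 6.01 of this sum in Gr-1+, in a range of 31.7% to 44.9%, and 15.2% ± 2.87 in Gr-1-, in a range of 11.8% to 19.6%. The 3 activating genes made up 52.3% ± 8.89 in Gr-1+ and 84.4% ± 2.90 in Gr-1-. The summed level of the inhibitory genes was similar, at 145 ± 34.2 FPKM in Gr-1+, against 169 ± 30.9 FPKM in Gr-1-, whereas that of the activating genes was 206 ± 126 FPKM in Gr-1+, against 999 ± 398 FPKM in Gr-1-. Cd300e alone held 6.50% of the family's FPKM in Gr-1+ and 45.2% in Gr-1-. With Cd300e left out of the sum, the inhibitory share was 43.3% ± 6.47 in Gr-1+ and 27.5% ± 3.42 in Gr-1-. In both ways of counting, the lowest inhibitory share in Gr-1+ was that of the CD19Cre library. It was 31.7% with Cd300e and 33.6% without, where the highest Gr-1- share, in the floxed library, was 19.6% and 33.3%. These shares describe RNA, and no test was made over the members.

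**Figure D2:**
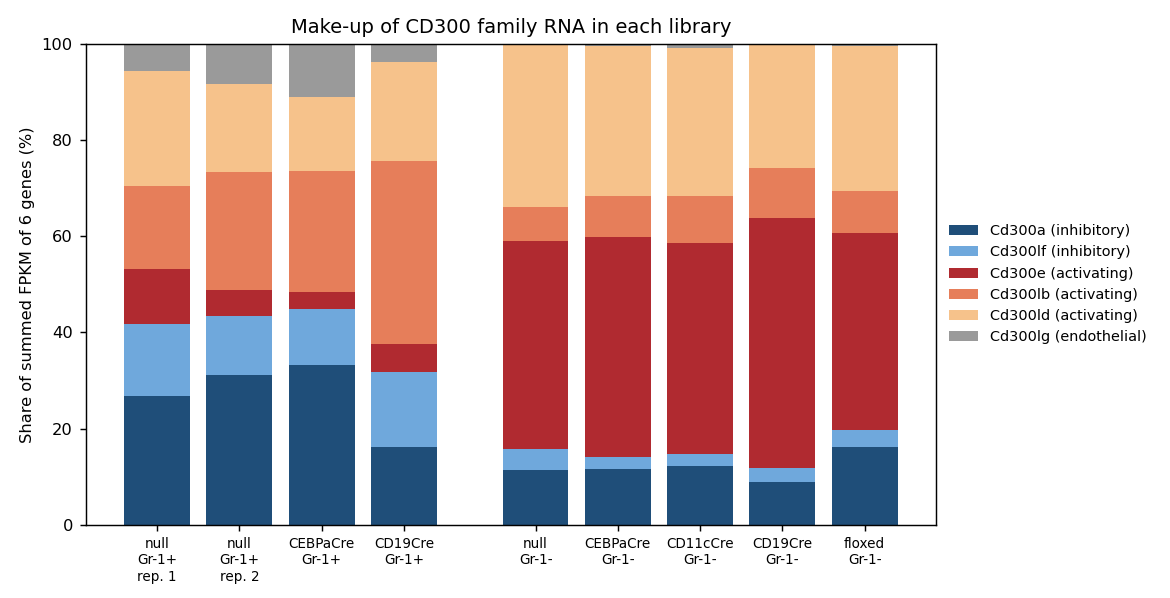
Share of the summed FPKM of the 6 CD300 genes (y axis, percent) held by each gene in each library, with Gr-1+ libraries on the left and Gr-1- libraries on the right, inhibitory genes in blue, activating genes in red and orange and Cd300lg in grey. Blue takes 31.7% to 44.9% of the bars of Gr-1+ and 11.8% to 19.6% of those of Gr-1-, where Cd300e is the largest block.

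The order of levels differed between the subsets. In each of the 5 Gr-1- libraries, Cd300e was the highest, then Cd300ld, with Cd300lf and Cd300lg the lowest. Cd300a was above Cd300lb in 4 of these 5, and the CD19Cre library had them the other way round. The ranges over libraries overlapped between Cd300e and Cd300ld and between Cd300a and Cd300lb, and did not overlap between Cd300ld and Cd300a, Cd300lb and Cd300lf, or Cd300lf and Cd300lg. In Gr-1+, Cd300a was the highest in 3 of 4 libraries and Cd300lb in the CD19Cre library. Cd300ld was above Cd300lf in all 4 and Cd300lf above Cd300e in all 4. Cd300e and Cd300lg, at means of 24.6 and 24.0 FPKM, were each above the other in 2 of the 4. Every pair of neighbours in the Gr-1+ order overlapped in range.

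Further CD300 symbols in the files were read with more caution. Cd300lh, now named Cd300ld3, held 0.708 to 2.27 FPKM in Gr-1+ and 9.11 to 16.3 FPKM in Gr-1- libraries, a log2 difference of -2.43 ± 0.25 (limma adjusted p = 8.64e-05). Gm11710, now named Cd300ld4, held 0.662 to 2.02 FPKM in Gr-1+ and 7.51 to 12.6 FPKM in Gr-1- libraries, a log2 difference of -2.30 ± 0.23 (limma adjusted p = 5.71e-05). Of the stretches of 50 bases in their transcripts, 82.1% and 93.8% also occurred in transcripts of other genes, so reads of these copies cannot be assigned with certainty. The genes that shared most with them were CD300 genes of the cluster. The share was 3.28% for Cd300a, 3.89% for Cd300ld and 6.04% for Cd300lf, and 0 for Cd300e, Cd300lb and Cd300lg. For Cd300a it included Klhdc2 and Zfp646, which are not CD300 genes. The symbol Cd300c, which may stand for the gene now called Cd300c or for Cd300c2, once also named so, stayed at 0 to 0.442 FPKM in all libraries and was too low for the fit. None of the members' exons overlapped an exon of another gene.

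Adaptors and signalling genes that work with CD300 receptors were examined next. Of 25 such genes, 21 were tested, 0 were higher and 4 were lower in Gr-1+ monocytes, and 17 did not pass (7 had an unadjusted p under 0.05, 2 of them higher). Over all genes, 8.84% were called higher and 5.95% lower in Gr-1+. The median log2 difference was -0.05 for the list and 0.09 for all genes. Tyrobp, the DAP12 adaptor, averaged 3217 ± 839 FPKM in Gr-1+ (SD, n = 4) and 3239 ± 358 FPKM in Gr-1- (SD, n = 5), with a log2 difference of -0.04 ± 0.24 (limma adjusted p = 0.941). Fcer1g, the gamma chain, held 2063 to 3334 FPKM in Gr-1+, against 3427 to 4764 FPKM in Gr-1- libraries. These did not overlap, and the log2 difference of -0.70 ± 0.23 did not pass (limma adjusted p = 0.0707). Both adaptors were thus above every CD300 gene in FPKM in every library.

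Among those that passed was Hcst, the DAP10 adaptor, with a log2 difference of -0.94 ± 0.29 (limma adjusted p = 0.0490). Ptpn11, the phosphatase SHP-2, stood at 5.18 to 11.1 FPKM in Gr-1+ and 9.88 to 14.0 FPKM in Gr-1- libraries, and these overlapped (-0.76 ± 0.22, limma adjusted p = 0.0395). Dok1, an adaptor that restrains signalling, held 24.4 to 41.7 FPKM in Gr-1+ and 57.2 to 96.7 FPKM in Gr-1- libraries (-1.14 ± 0.22, limma adjusted p = 0.00486). Ptpn6, the phosphatase SHP-1 that inhibitory CD300 receptors recruit, did not pass, at 307 to 661 FPKM in Gr-1+, against 421 to 963 FPKM in Gr-1- libraries (log2 difference -0.54, limma adjusted p = 0.285). Il4ra, whose product associates with CD300LF in mice, did not pass either, with a log2 difference of 0.80 (limma adjusted p = 0.0983). Havcr1 and Timd4, the genes of the ligands TIM1 and TIM4, were among the 4 genes too low to test.

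**Figure D3:**
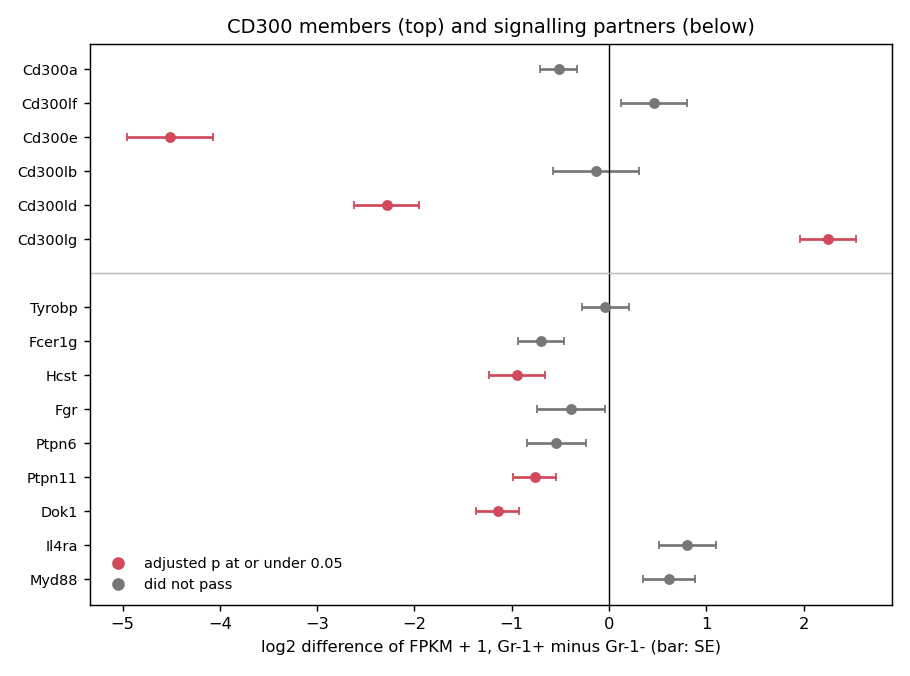
Log2 difference of FPKM + 1, Gr-1+ minus Gr-1- (x axis), for the 6 CD300 genes (top) and the adaptors and signalling genes named in the text (below), with bars for the SE from limma and red points for an adjusted p at or under 0.05. Cd300e at -4.51 lay far below the signalling genes shown, of which Dok1 at -1.14 was the lowest.

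Related receptors of the TREM, PILR, SIRP and leukocyte immunoglobulin-like families also went both ways. Of 14 tested, 4 were higher and 7 were lower in Gr-1+ monocytes, beside 8.84% and 5.95% of all genes, with a median log2 difference of -0.75. The 7 were Trem1, Trem3, Treml4, Pilra, Pilrb1, Pilrb2 and Lilra5, the last at -3.60 (limma adjusted p = 1.47e-05), and Treml4 stood at -2.68 (limma adjusted p = 0.000288). The 4 were Trem2 at 3.13 (limma adjusted p = 2.86e-05), Treml2, Lilrb3 and Lilrb4. Of 18 other genes that flank the CD300 cluster on chromosome 11 or lie within it and are in the files, 6 were tested. Of these, 0 passed in limma, 0 of them with an unadjusted p under 0.05, with a median of 0.20. With 14.8% of all genes called, a count of 0 among 6 is near that share.

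The members most alike across the 9 libraries were Cd300e and Cd300ld, with a Pearson r of 0.985 in log2(FPKM + 1). A high r is set in part by the gap between the subsets. In deviations from the subset means their r was 0.923, while those of Cd300lb were 0.626 with Cd300e and 0.800 with Cd300ld, and those of Cd300lf 0.779 with Cd300e and 0.889 with Cd300ld. Among 6639 other genes, the levels most like Cd300e were those of Pilrb2 (r = 0.997), Treml4 (0.991) and Cd82 (0.990). Those most like Cd300ld were Gyk (0.993), Cd81 (0.992) and Pilra (0.990), and those most like Cd300lg were Zcchc24 (0.993), Clec7a (0.982) and Gypc (0.981). For Cd300a they included Eif1ad (0.971) and Rbbp7 (0.966), for Cd300lf Tjap1 (0.958), Vmp1 (0.947) and Mpp6 (0.947), and for Cd300lb Ruvbl1 (0.997), Nsfl1c (0.989) and Wwp2 (0.988). Cd300lb and Ruvbl1 kept an r of 0.998 in deviations from the subset means, where the high CD19Cre libraries weigh most. All these values share the same 9 libraries and are descriptions of them.

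The second comparison set the libraries whose labels remove Fcgr2 from myeloid cells (null and CEBPaCre, 5 libraries) against those that leave it in (CD19Cre and floxed, 3 libraries), at equal subset. None of the 6 CD300 genes passed in limma, beside 0 of 10429 genes, or 0%, with 1470 genes, and of the members Cd300lb, at an unadjusted p under 0.05. With library weights, limma called 673 genes, among them Cd300lb (-1.40, adjusted p = 0.0425). Cd300lb had the largest difference of the family, at 59.3 to 75.2 FPKM in the 3 deleted libraries of Gr-1+ and 231 FPKM in the intact one. In Gr-1- it held 67.7 and 104 FPKM in the deleted libraries and 195 and 61.8 FPKM in the intact ones. The intact libraries of Gr-1- thus lay on both sides of the deleted ones. The log2 difference of Cd300lb, deleted minus intact, was -0.99 ± 0.44 (limma adjusted p = 0.351). Cd300lf stood at -0.55 ± 0.37, Cd300e at -0.50 ± 0.52, Cd300ld at -0.41 ± 0.39, Cd300a at -0.14 ± 0.23 and Cd300lg at 0.07 ± 0.25, with limma adjusted p between 0.489 and 0.905.

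The deletion values rested on single libraries. Without the floxed library, limma called 2551 genes, among them Cd300lb at -1.53 (adjusted p = 0.00897) and Cd300lf at -0.93 (adjusted p = 0.0389), a contrast with the CD19Cre libraries alone. Without both CD19Cre libraries, a choice made after seeing the data, the differences of Cd300a, Cd300lf, Cd300e, Cd300lb and Cd300ld were all positive, at 0.12, 0.53, 0.72, 0.44 and 0.71, and none passed. Whether the deletion difference itself differed between subsets was tested with an interaction term. In Gr-1+, CD19Cre was the only intact library, so an interaction cannot be told apart from that library. The term was -1.43 for Cd300lb, -1.27 for Cd300ld, -1.26 for Cd300lf, -0.84 for Cd300e, 0.03 for Cd300a and 0.0083 for Cd300lg. It called 0.0863% of genes in limma, 0.0479% with a positive and 0.0384% with a negative term, and none of the 6 members (limma adjusted p from 0.882 to 0.997, with 0 members at an unadjusted p under 0.05).

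The CD19Cre libraries were set against the other 7 at equal subset, a comparison added after their values were seen. Cd300lb was higher in CD19Cre monocytes by 1.51 ± 0.26 on the log2 scale (limma adjusted p = 0.00857) and Cd300lf by 1.01 ± 0.26 (limma adjusted p = 0.0239). In Gr-1+, Cd300lb in the CD19Cre library was 3.53-fold the mean of the other 3 libraries, 65.5 ± 8.46 FPKM, and in Gr-1- it was 2.28-fold that of the other 4, 85.7 ± 24.4 FPKM. For Cd300lf these ratios were 2.39 in Gr-1+ and 1.70 in Gr-1-. Cd300e at 1.08 ± 0.42, Cd300ld at 0.87 ± 0.28, Cd300a at 0.28 ± 0.18 and Cd300lg at -0.04 ± 0.34 did not pass (limma adjusted p = 0.0896, 0.0555, 0.281 and 0.944).

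The CD19Cre libraries stood apart from the rest over the whole table as well. Limma called 19.3% of genes in this comparison, 13.9% higher and 5.41% lower in CD19Cre, beside 2 of 6 members, both higher. The median log2 difference of all genes was 0.18, against 0.94 over the members, and after quantile normalization the median of all genes was 0.06. With that normalization, 1139 genes were higher and 796 lower in CD19Cre, where the values as deposited gave 1453 and 565, and Cd300lf no longer passed (0.66, limma adjusted p = 0.119) while Cd300lb did (1.30). Cd300lf, Cd300lb and Cd300ld were highest in the CD19Cre library of both subsets, 3 of 6 members, beside 31% of all genes. The share of ribosomal protein genes, given above, was lowest in the same 2 libraries. Among neutrophil markers, Ngp, Camp, Ltf, Elane and Mpo were highest of Gr-1+ in the CD19Cre library (210, 38.9, 18.4, 18.0 and 5.68 FPKM). That library was the highest of Gr-1+ for 43.6% of all genes. S100a8, S100a9, Cxcr2 and Retnlg were highest in other Gr-1+ libraries. In CD19Cre Gr-1-, none of Ngp, Camp, Ltf, Elane and Mpo exceeded 0.117 FPKM. The part of the ribosomal share or of these markers in the CD19Cre differences was not tested. Of the signalling genes, Fgr, Ptpn6, Dok1 and Myd88 were higher in CD19Cre, at 1.08, 0.81, 0.56 and 0.74 (limma adjusted p = 0.0134, 0.0410, 0.0481 and 0.0290). These were 4 of 21 tested, beside 13.9% of all genes called higher, and the count is near that share.

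**Figure D4:**
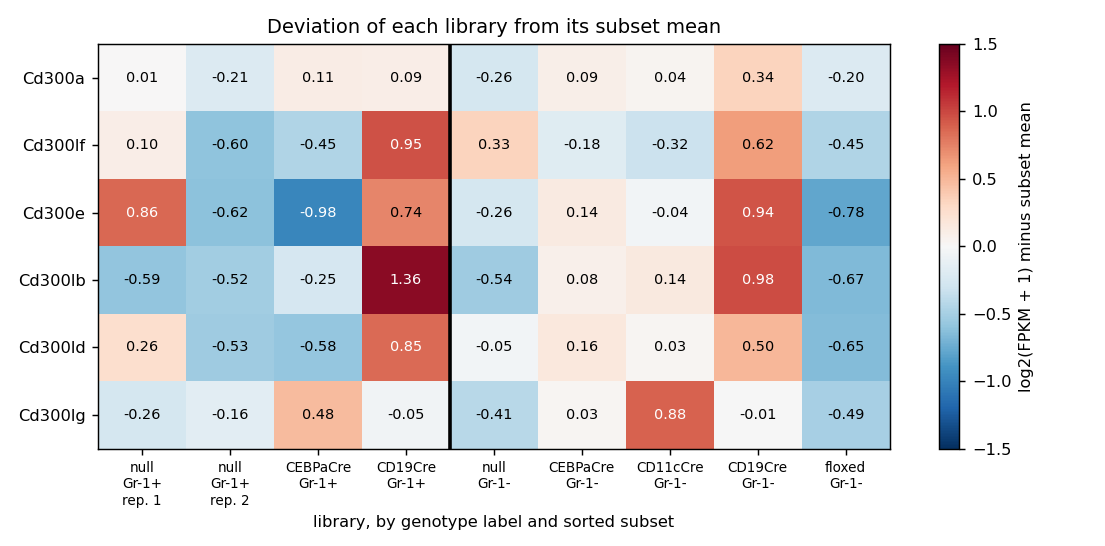
Deviation of each library (columns, by genotype label and subset) from the mean of its subset in log2(FPKM + 1) for each CD300 gene (rows), with red above and blue below the mean. Cd300lb and Cd300lf are red in both CD19Cre columns, and 5 of 6 genes are at their Gr-1- minimum in the floxed column.

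Among the other genotypes, each of which had a single library in a subset apart from null in Gr-1+, the values have no replicate check. The floxed library was the lowest of the Gr-1- libraries for every member other than Cd300a, 5 of 6, beside 47.9% of all genes, so its lower values were common to much of the table. After median-ratio scaling it was the lowest for 2 of 6, Cd300e and Cd300ld, beside 30.4% of genes. The null Gr-1- library exceeded the floxed one by 0.78 on the log2 scale for Cd300lf, 0.61 for Cd300ld and 0.52 for Cd300e, beside a median of 0.13 over all genes, and Cd300a was at -0.06. The CEBPaCre Gr-1- library exceeded it by 0.92 for Cd300e, 0.81 for Cd300ld and 0.75 for Cd300lb, beside a median of 0.34. The CD11cCre Gr-1- library exceeded it by 1.38 for Cd300lg, 0.81 for Cd300lb and 0.75 for Cd300e, beside a median of 0.35. In Gr-1+, the CEBPaCre library had the highest Cd300a and Cd300lg and the lowest Cd300e and Cd300ld of the 4 libraries, and the 2 null libraries differed from each other in Cd300e, at 39.1 and 13.4 FPKM, by at least as much as null replicate 2 and CD19Cre did, at 13.4 and 35.7 FPKM.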

How the data were processed

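The authors deposited 1 table per library with 1 FPKM value per gene symbol. Per the submitters' processing notes, TopHat2 2.0.8, Cufflinks 2.1.1 and the mm9 build were used; the annotation, settings and any further scaling are not given in the sources used here. Per the labels' protocols, RNA was taken with Trizol and cDNA made with a SMART-Seq v4 kit. All value columns were used (0 left out). Read counts were not part of the files, so no counting interval is given. A relative depth, from the steps between low FPKM values, ran from 0.702 in null Gr-1+ replicate 1 to 2.66 in CD19Cre Gr-1-, with floxed at 1. This estimate is rough, since it rested on 178 of 1066 genes compared in null Gr-1+ replicate 1 and 179 of 1447 in CD19Cre Gr-1-. CD19Cre Gr-1- also had more genes at 0 than floxed, 8827 against 5246.

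Fits used the R package limma 3.58.1 (R 4.3.3; lmFit, eBayes with trend) on log2(FPKM + 1), which understates changes of low genes. A gene needed an average of 1 FPKM or more across the 9 libraries and 2 or more fitted libraries with a value above 0, and p-values were Benjamini-Hochberg adjusted over all genes tested and called at or under 0.05. Errors of log2 differences are standard errors, and folds are ratios of geometric means of FPKM + 1. The deletion, interaction and CD19Cre fits had the subset as a covariate, and CD11cCre was left out of the deletion and interaction fits. Single genes were also tested by exact permutation. The fit was tested on simulated data. Alternatives were a pseudocount of 0.1, no filter, quantile and median-ratio scaling, library weights, a genotype block, other groupings and leaving out each library.

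The members, gene lists and tests were chosen with earlier results of these data known. Named genes were the members, called signalling genes, Fcgr2b and the 3 genes most correlated with each member among genes averaging 5 FPKM or more; other genes were named after their values were seen. A result picked by this rule is not reported here. Promoter windows are from RefSeq (GRCm38.p6), and shared 50-base stretches and exon overlap from GENCODE M21, used without their coordinates in the authors' build.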

Additional observations from a re-analysis of the deposited data

Results flagged for a closer look

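Of 12 groups examined (each of the 6 genes in each subset), 2 held a library that stood apart by Dixon's test at its 95% level, which by chance marks about 1 group in 20. Cd300lb in Gr-1+ was highest in the CD19Cre library at 231 FPKM, with the other 3 libraries at 59.3 to 75.2 FPKM, and the gap was 0.907 of the whole range. The CD19Cre library was also the highest for Cd300lb in Gr-1-, at 195 FPKM. Cd300lg in Gr-1- was highest in the CD11cCre library at 8.49 FPKM, with the other 4 at 2.65 to 4.27 FPKM, and the gap was 0.723 of the range. CD11cCre had no Gr-1+ library to set beside it.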

How the results depend on the processing

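Cd300e, Cd300ld and Cd300lg kept their direction and their call in the subset comparison under all 17 alternatives, with limma adjusted p up to 0.000742, 0.00398 and 0.00267. The number of genes called was 2376 with library weights, 2712 with the genotype block, 965 with only genotypes that had both subsets, and 1128 to 1578 when 1 library was left out, beside 1544. Cd300a passed with quantile normalization (-0.64), median-ratio scaling (-0.62), library weights (-0.55) and the genotype block (-0.52). Cd300lb turned positive in 3 fits that left out a library, in a range of -0.59 to 0.11. With replicate numbers, no paired analysis was possible because only null libraries carry them and the subsets share fewer than 2. The genotype block above sets the subsets against each other within null, CEBPaCre and CD19Cre.

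In the deletion comparison, the number of genes called was 673 with library weights, 3 for null alone against CD19Cre and floxed, 5 without both CD19Cre libraries and 0 to 2551 when 1 library was left out, and 1 member was called with weights (Cd300lb, -1.40) and 0 to 2 without 1 library. Leaving out 1 library gave ranges of -0.93 to -0.0084 for Cd300lf, -1.53 to -0.38 for Cd300lb, -0.81 to 0.13 for Cd300ld and -0.046 to 0.18 for Cd300lg. Other reversals were Cd300a at 0.052 with quantile normalization, Cd300lg at -0.16 for null alone, and, without both CD19Cre libraries, Cd300a at 0.12, Cd300lf at 0.53, Cd300e at 0.72, Cd300lb at 0.44 and Cd300ld at 0.71. In the CD19Cre comparison, quantile normalization left 1 member called, with Cd300lf at 0.66 and Cd300a at -0.029. The inhibitory share in Gr-1- was 27.5% without Cd300e in the sum. The cause of these shifts was not tested.

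Genotypes had 1 library per subset apart from null in Gr-1+, so genotype and library cannot be told apart, and depth in reads was unknown.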
